A study of Mus musculus with 6 samples.

Results

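Nuclear genes of oxidative phosphorylation were described in mouse cortex 24 h after traumatic brain injury (TBI). They were taken as every row of the gene table whose name begins with Nduf followed by a, b, c, f, s or v, with Cox followed by a digit from 4 to 8, with Uqcr or with Atp5, or is Sdha, Sdhb, Sdhc or Sdhd. The rule found 92 of 56826 gene rows, of which 23473 carry a gene name. By prefix, 83 of the 92 encode subunits: 38 of complex I, 4 of complex II, 8 of complex III, 18 of complex IV and 15 of complex V. The other 9 are 7 Ndufaf assembly factors of complex I and the pair Atp5s and Atp5sl, which RefSeq now names Dmac2l and Dmac2 and which are counted apart from the ATP synthase subunits.

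The respiratory chain of the inner mitochondrial membrane passes electrons from NADH (complex I) and succinate (complex II) through ubiquinone to complex III, then by cytochrome c to complex IV and oxygen. Complexes I, III and IV pump protons as they do so, and complex V, the ATP synthase, uses the returning protons to make ATP. Complexes I, III, IV and V each join nuclear-encoded subunits, made in the cytosol and imported, to a few encoded by mitochondrial DNA, whereas complex II is nuclear-encoded throughout; in the brain most of this ATP pays for the ion pumping that neuronal signalling demands.

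Cortex around the injury site of wild-type C57BL/6 mice at 24 h after TBI (3 libraries) was set against normal cortex of wild-type mice of the same strain (control, 3 libraries). The labels give no age, sex or method of injury, and they do not say whether a library is 1 animal or a pool, so p-values measure the spread between these libraries, which may be technical. Gene-table column totals were 68808787 to 72169720 counts in TBI libraries and 67252519 to 83929814 counts in control libraries, with rows that overlap. In bulk tissue, fewer cells of a type and less RNA per cell cannot be told apart.

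Libraries and tissue were checked before the members were read. Pan-neuronal markers summed to 1791 to 1924 RPKM (counts scaled by row length and library total) in TBI libraries and 2118 to 2262 RPKM in control libraries, with 7 of 12 lower after TBI and none at 0. Injury markers were higher after TBI for all 12 genes of activated microglia and macrophages (113 to 152 RPKM in TBI libraries, 20.8 to 23.6 RPKM in control libraries), all 8 of reactive astrocytes and all 7 tested of neutrophils. Control replicate 2 stood apart from the other controls: the chi-square per row was 27.4 with each of them, against 12.1 between control replicates 1 and 3, and 17.8 to 24.4 between TBI libraries. Oligodendrocyte markers summed to 682 to 1084 RPKM in TBI libraries, and to 562 RPKM in control replicate 2 against 1005 and 825 RPKM in control replicates 1 and 3. Gad2, a GABA-making enzyme of interneurons, stood at 24.5 to 28.2 RPKM in TBI libraries, and at 38.2 RPKM in control replicate 2 against 17.4 and 19.9 RPKM in the other controls. Tac1, a neuropeptide precursor, stood at 9.02 to 22.2 RPKM in TBI libraries, and at 44.1 RPKM in control replicate 2 against 12.3 RPKM in each other control. Both belong to a list of 8 parvalbumin interneuron markers, of which 0 were higher and 1 was lower after TBI. The list summed to 146 to 164 RPKM in TBI libraries. In control replicates 1, 2 and 3 the sum was 164, 210 and 160 RPKM. Gad2 and Tac1 enter this sum and account for about all of its excess in control replicate 2. More interneurons in that library are therefore not read from these 2 genes or from the sum. Choroid plexus markers summed to 256 to 629 RPKM in TBI libraries and 91.5 to 170 RPKM in control libraries, with 5 of 8 higher and none at 0. The part of these cell types in the members' values was not tested.

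Small, like-signed differences ran through all 5 complexes, but few single genes passed the test. Of the 92 members, 89 had enough counts to be tested, and edgeR's quasi-likelihood test, with p-values adjusted over all 42762 tested rows, called 0 higher and 5 lower after TBI at an adjusted p under 0.05. As background, 9.12% of all tested rows were called higher and 8.36% lower, and among named genes 15.4% were called higher and 10.7% lower. The count of members called lower was thus below the background share and is no result about the members. At an unadjusted p under 0.05, 1 member was higher and 23 were lower, where 14.6% of all rows were higher and 14.7% lower. By the same measure 689 were higher and 1577 lower of the 5089 named genes with a mean of at least 10 RPKM. The 23 are therefore not read as an excess. DESeq2 called 0 higher and 6 lower, where it called 9.13% of all rows higher and 9.08% lower.

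The direction was shared far more widely than the calls. A log2 fold change below 0 was found for 79 of 89 members (88.8%), with a median of -0.14, against a median of 0.01 over all tested rows and -0.08 over the 5089 named genes with a mean of at least 10 RPKM, of which 64.6% were below 0. The fitted changes were also small with some precision: the 95% interval of the log2 fold change lay within ±1 for 87 of 89 members and within ±0.5 for 79. Among the same 5089 named genes it lay within ±1 for 4886 and within ±0.5 for 3835. The sign count depends on how libraries are scaled. TMM factors were 1.03 in TBI libraries and 0.955 to 0.998 in control libraries, and with library totals alone 64 of 89 members (71.9%) were below 0, with a median of -0.06 beside 0.09 over all rows.

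**Figure D1:**
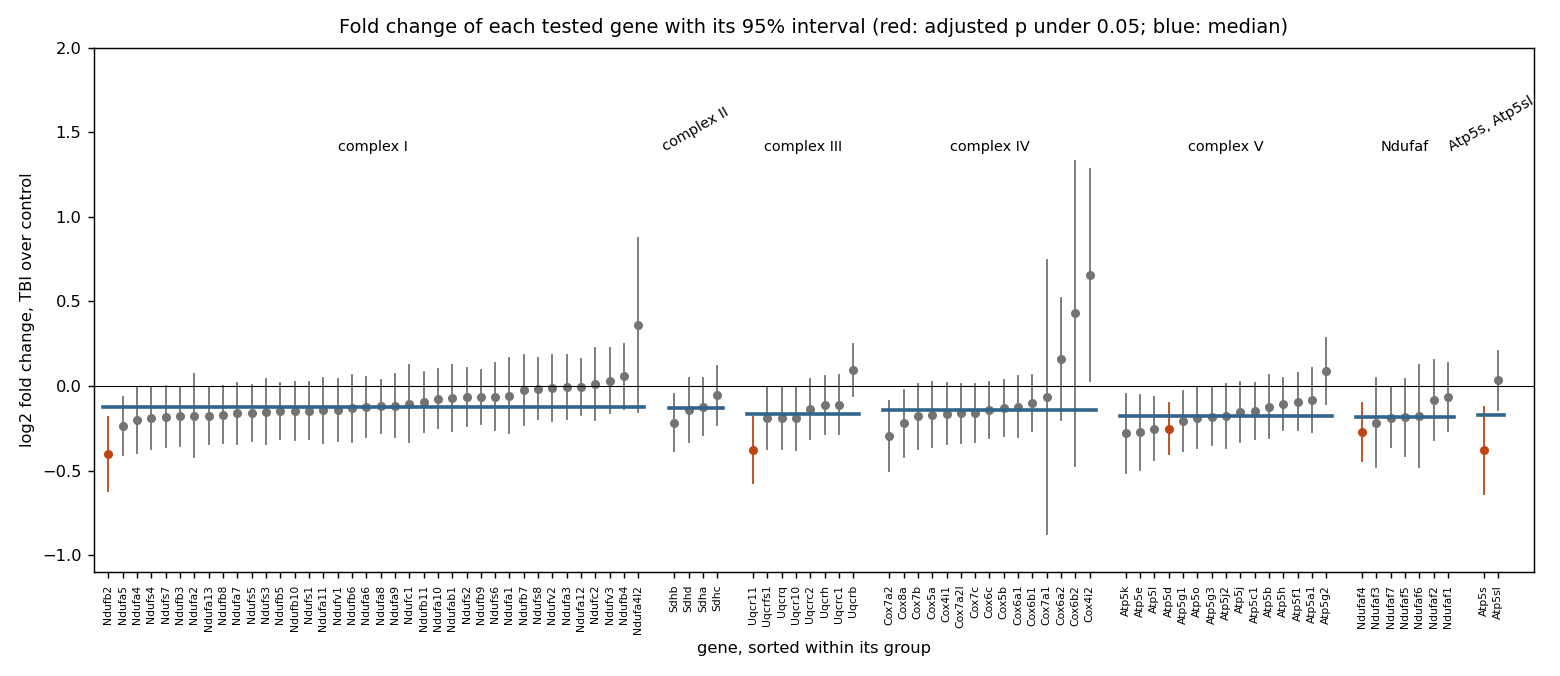
Log2 fold change (TBI over control, vertical axis) of each of the 89 tested genes with its 95% interval, grouped by complex; red marks an adjusted p under 0.05 and blue lines the medians. Most genes of every complex sit just below 0, 5 are red and all of these are lower, and the 4 highest values belong to the low-level isoforms Cox4i2, Cox6b2, Ndufa4l2 and Cox6a2.

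By complex, the median log2 fold change was -0.12 for complex I, -0.13 for complex II, -0.16 for complex III, -0.14 for complex IV and -0.18 for complex V. With library totals alone the 5 medians were -0.04 for complex I, -0.05 for complex II, -0.08 for complex III, -0.06 for complex IV and -0.10 for complex V. The TMM-scaled medians had an SD of 0.0814 to 0.0940 between libraries of a group. Libraries moved the 5 complexes together, so this SD does not measure the spread of a difference between complexes. Such differences were not tested, and no order of complexes is read from the medians. Within complex I, the 7 core subunits that carry its flavin and iron-sulfur centres or line the path of electrons had a median of -0.14. The 31 other subunits by prefix, which include Ndufa4 and its paralog Ndufa4l2, had one of -0.12. Within complex V, the 5 subunits of the catalytic F1 head had a median of -0.15, and the 10 of the membrane part and stalk one of -0.18. The Ndufaf assembly factors, which help to build complex I and then leave it, had a median of -0.18.

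Single libraries show how the group medians arise. Over all subunits tested, the median TMM-scaled log2 level against the control mean was -0.14, -0.07 and -0.21 in TBI replicates 1 to 3, and 0.04, -0.12 and 0.07 in control replicates 1 to 3. On this scale control replicate 2 lay below TBI replicate 2, so the groups overlapped through these 2 libraries, and the same held in each of the 5 complexes taken alone. On the deposited RPKM scale the medians over all subunits were -0.06, 0.01 and -0.12 in TBI replicates 1 to 3, and 0.01, -0.08 and 0.06 in control replicates 1 to 3. There the overlap was wider: over all subunits control replicate 2 also lay below TBI replicate 1. TBI replicate 2 lay above control replicate 1 in complex I (0.0410 in TBI, 0.00608 in control) and in complex II (0.0474 in TBI, -0.00544 in control). In complex II it also lay above control replicate 3 (0.0378). Without control replicate 2 the test called 20 members lower and 0 higher, where 9.34% of all rows were called lower.

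**Figure D2:**
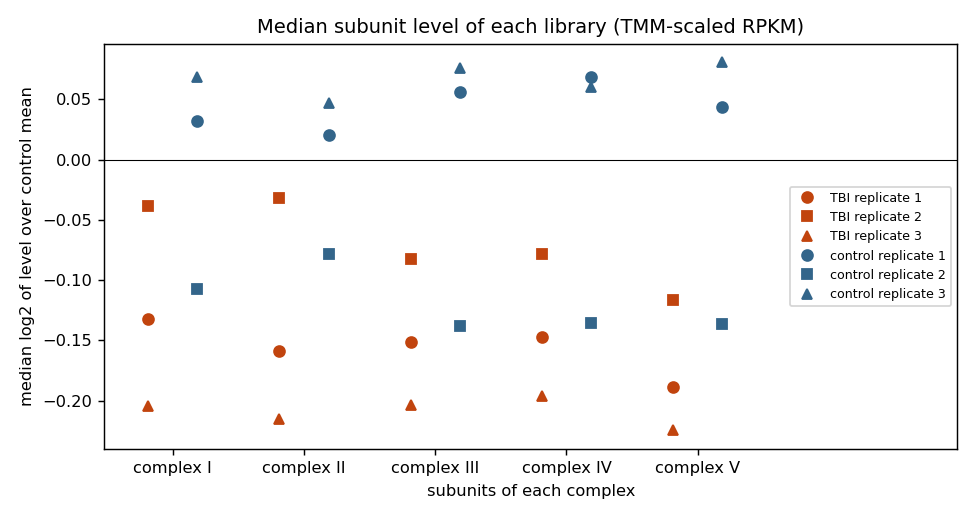
Median log2 level of the tested subunits of each complex against the control mean (vertical axis, TMM-scaled RPKM), for each of the 3 TBI libraries (red, left) and 3 control libraries (blue, right). On this scale control replicate 2 lies below TBI replicate 2 in every complex, while the other control libraries lie above all TBI libraries.

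The count of calls rested on which libraries were used. Leaving out control replicate 1 left 2 members called lower (5.48% of all rows), and leaving out control replicate 3 left 0 (5.45% of all rows, with 0 members higher and 7 lower at an unadjusted p under 0.05, where 13% of all rows were higher and 12.3% lower). Without TBI replicates 1, 2 and 3 the counts were 3, 8 and 3, beside 5.78%, 7.01% and 6.11% of all rows. When the 33353 rows of FANTOM3 cDNA clones were left out of the fit, 16 members and 14% of the rows were called lower.

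Among complex I subunits, Ndufb2 alone was called. It encodes an accessory subunit of the membrane arm, and its row lies at chr6:39592549-39599472 on the forward strand (mm10). Ndufb2 stood at 23.2, 23.6 and 23.2 RPKM in TBI libraries, and at 29.3, 26.4 and 31.7 RPKM in control libraries. All 3 TBI libraries lay below all 3 control libraries, with a log2 fold change of -0.40 ± 0.10 (SE) and an adjusted p of 0.0149 by edgeR. The most abundant complex I gene, Ndufb9, another accessory subunit, stood at 121, 121 and 113 RPKM in TBI libraries and at 121, 115 and 116 RPKM in control libraries, which overlapped (log2 fold change -0.06, positive under library totals alone and on the RPKM scale, adjusted p = 0.615 by edgeR). Of the other 36 complex I subunits by prefix, none was called. Ndufa5, an accessory subunit of the peripheral arm, came closest (log2 fold change -0.24, adjusted p = 0.0563 by edgeR).

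In complex II, which is also succinate dehydrogenase of the citric acid cycle, none of the 4 subunits was called. Sdha, the flavoprotein that oxidises succinate, had 71.1, 75.5 and 65.4 RPKM in TBI libraries and 72.2, 71.7 and 74.5 RPKM in control libraries. Sdhb, the iron-sulfur subunit, had 42.7, 47.1 and 42.0 RPKM in TBI libraries and 48.7, 47.0 and 49.1 RPKM in control libraries. Their groups overlapped, for Sdhb through TBI replicate 2 and control replicate 2 alone, and the log2 fold changes were -0.12 for Sdha and -0.22 for Sdhb (adjusted p = 0.331 and 0.0746 by edgeR). Of the membrane anchors, Sdhc had 30.7, 34.7 and 31.0 RPKM in TBI libraries and 31.6, 30.6 and 32.5 RPKM in control libraries. Sdhd had 23.8, 26.7 and 24.1 RPKM in TBI libraries and 24.6, 24.9 and 28.3 RPKM in control libraries. Both anchors overlapped between the groups, with log2 fold changes of -0.05 for Sdhc, whose sign was positive under library totals alone and on the RPKM scale, and -0.14 for Sdhd.

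Complex III held a called gene and a member whose libraries lay in the opposite order. Uqcr11, a small subunit of the membrane part (chr10:80402997-80406821, reverse strand, mm10), had 60.2, 67.6 and 59.6 RPKM in TBI libraries and 79.0, 70.6 and 80.4 RPKM in control libraries. All TBI libraries were lower, with a log2 fold change of -0.38 ± 0.09 (SE) and an adjusted p of 0.0114 by edgeR. Uqcrb, the ubiquinone-binding subunit (chr13:66900621-66905350, reverse strand, mm10), had 89.1, 91.8 and 85.3 RPKM in TBI libraries and 77.9, 81.9 and 76.2 RPKM in control libraries. Here all TBI libraries were higher than all control libraries, but the fitted log2 fold change of 0.09 ± 0.07 (SE) did not pass (adjusted p = 0.426 by edgeR).

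The ratio of Uqcrb to Uqcr11, a pair picked after their values were seen and so given without a test, was 1.48, 1.36 and 1.43 in TBI libraries and 0.985, 1.16 and 0.948 in control libraries. Both proteins occur in equal number in complex III. The coding sequence of Uqcrb has 4 pseudogene copies at 90% identity or more, and that of Uqcr11 has 2, so reads could be shared with copies; their part in the ratio was not tested. Uqcrh, the hinge protein near cytochrome c1 and the most abundant complex III gene, had 94.1, 98.5 and 88.6 RPKM in TBI libraries and 93.3, 92.3 and 102 RPKM in control libraries, which overlapped (log2 fold change -0.11, adjusted p = 0.389 by edgeR). The other 5 subunits had log2 fold changes between -0.19 and -0.11.

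**Figure D3:**
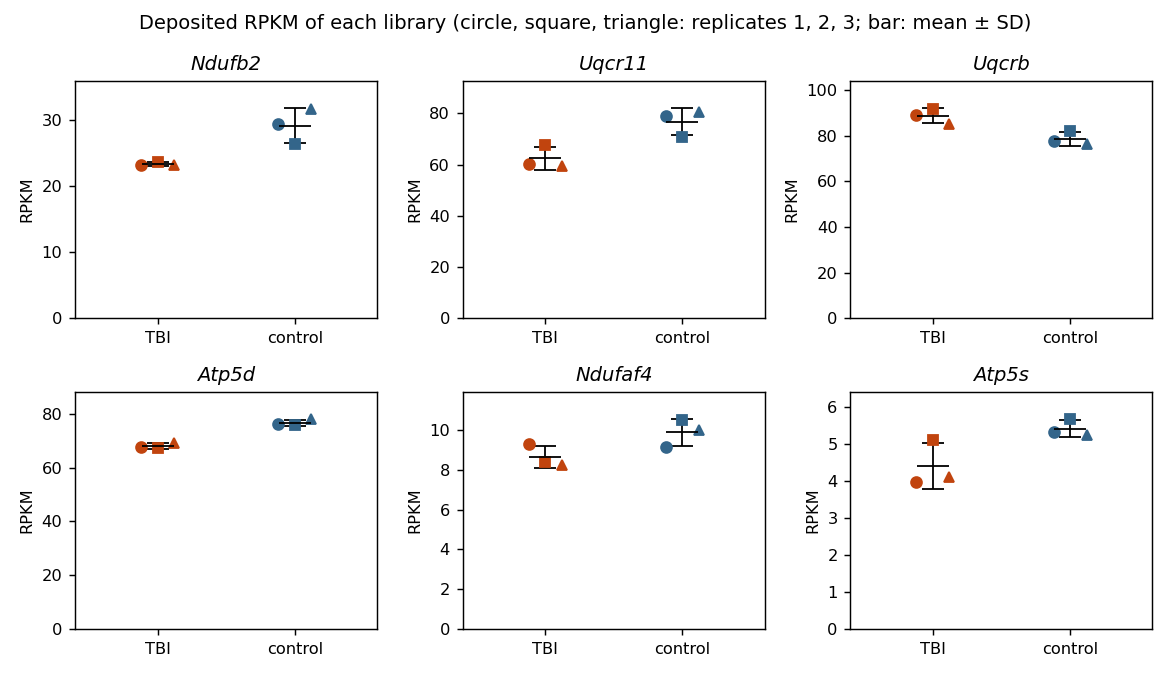
Deposited RPKM (vertical axis from 0) in each TBI library (red, left) and control library (blue, right) for the 5 called genes and Uqcrb, with mean ± SD (n = 3 each). Ndufb2, Uqcr11, Atp5d and Atp5s show TBI libraries below all control libraries, Ndufaf4 overlaps on this scale (9.29 in a TBI library, 9.17 in a control library), and Uqcrb shows the opposite order.

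Complex V had 1 called subunit and 14 of 15 log2 fold changes below 0. Atp5d, the delta subunit of the central stalk that couples rotation to the catalytic head (chr10:80142280-80145818, forward strand, mm10), had 67.5, 67.4 and 69.2 RPKM in TBI libraries and 76.1, 75.7 and 78.0 RPKM in control libraries. The groups were tight and apart, with a log2 fold change of -0.25 ± 0.07 (SE) and an adjusted p of 0.0239 by edgeR. Atp5k, subunit e of the membrane part, had the largest fitted change of the complex, yet its TBI values of 48.8, 61.3 and 49.97 RPKM overlapped control values of 62.6, 56.6 and 64.5 RPKM (log2 fold change -0.28, adjusted p = 0.0992 by edgeR). Atp5b, the catalytic beta subunit and the most abundant member of all, had 321, 338 and 294 RPKM in TBI libraries and 336, 305 and 339 RPKM in control libraries, an overlap with a log2 fold change of -0.12.

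The other 2 called rows encode no subunit. Ndufaf4, an assembly factor of complex I, had 9.29, 8.40 and 8.24 RPKM in TBI libraries and 9.17, 10.5 and 9.99 RPKM in control libraries. It overlapped on the RPKM scale and not after TMM scaling, with a log2 fold change of -0.27 ± 0.08 (SE) and an adjusted p of 0.0331 by edgeR. Atp5s had 3.98, 5.11 and 4.10 RPKM in TBI libraries and 5.33, 5.68 and 5.26 RPKM in control libraries, apart in all 6, with a log2 fold change of -0.38 ± 0.12 (SE) and an adjusted p of 0.0439 by edgeR. Of 15 alternative fits, Uqcr11 was called in 14 (not without control replicate 3, adjusted p = 0.0574 by edgeR) and Ndufb2 in 13 (not without control replicate 1 or 3, adjusted p = 0.0524 and 0.0787 by edgeR). Atp5d was called in 9, Ndufaf4 in 8 and Atp5s in 7, with adjusted p-values of up to 0.0894, 0.149 and 0.156 where the call was lost. Counting deposited RPKM alone, 6 members had all TBI libraries higher and 6 all lower, where 23.2% and 11.2% of all tested rows did. After TMM scaling 2 members had all TBI libraries higher and 19 all lower, where 17.3% and 16.4% of all tested rows did. Among the 5089 named genes with a mean of at least 10 RPKM, 809 had all TBI libraries higher on that scale and 1612 all lower. The 19 are therefore not read as an excess.

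Promoters of the 3 called subunits are shown because they are the subunits that fell in the test; each runs from 250 bases before to 50 after the start (RefSeq, GRCm38.p6, gene strand, 5′ to 3′). Capitals mark matches, on either strand, to GCGCATGC (the core bound by NRF1, a regulator of respiratory genes), CCGGAAG (an ETS core bound by GABP, also called NRF-2), AAGATGGC (YY1), GGGCGG (an SP1 GC box) and TATAAA. The windows are chr6:39592315-39592614, chr10:80406772-80407071 and chr10:80142025-80142324, on the forward, reverse and forward strands, and Atp5d is given by the more upstream of its 2 entries.
Ndufb2: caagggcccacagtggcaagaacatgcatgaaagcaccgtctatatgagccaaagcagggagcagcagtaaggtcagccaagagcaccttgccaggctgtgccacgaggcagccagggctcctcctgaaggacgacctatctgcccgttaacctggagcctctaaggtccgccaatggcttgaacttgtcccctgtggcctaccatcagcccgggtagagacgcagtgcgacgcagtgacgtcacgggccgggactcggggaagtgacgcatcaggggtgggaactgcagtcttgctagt
Uqcr11: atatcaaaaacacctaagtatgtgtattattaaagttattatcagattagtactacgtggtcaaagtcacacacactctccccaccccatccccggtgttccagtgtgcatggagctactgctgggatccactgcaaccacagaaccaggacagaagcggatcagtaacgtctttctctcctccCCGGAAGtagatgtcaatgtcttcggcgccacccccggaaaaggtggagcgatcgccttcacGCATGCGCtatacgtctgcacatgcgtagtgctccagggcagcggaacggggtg
Atp5d: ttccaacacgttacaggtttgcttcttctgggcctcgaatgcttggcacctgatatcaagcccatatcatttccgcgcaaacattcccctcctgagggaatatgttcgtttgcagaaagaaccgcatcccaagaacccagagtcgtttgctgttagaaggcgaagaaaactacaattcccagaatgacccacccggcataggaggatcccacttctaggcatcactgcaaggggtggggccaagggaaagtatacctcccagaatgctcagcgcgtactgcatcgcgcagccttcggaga
The Uqcr11 window holds an ETS core and, nearer the start, the NRF1 core on the opposite strand, whereas the windows of Ndufb2 and Atp5d hold none of the 5 motifs.

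Promoter entries were found for 76 of the 92 members, with 82 promoters in all. The NRF1 core was found in 14.6% of these, against 2.71% of all 32851 promoters of the same length and 3.52% of the 21263 of protein-coding genes. Matches to the ETS core stood at 20.7%, against 8.86% of all and 11.6% of protein-coding ones, and the YY1 motif at 14.6%, against 2.75% and 3.05%. The GC box stood at 42.7%, against 35.7% and 46.2%, and TATAAA at 9.76%, against 13.6% and 12.6%. Members with an NRF1 core in the window had a median log2 fold change of -0.16 (12 genes) and members without it one of -0.15. This difference was not tested.

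Complex IV has tissue isoforms that replace one another, and none of its 15 tested genes was called. Its 3 positive log2 fold changes belong to low-level isoforms, Cox4i2, Cox6b2 and Cox6a2, and its other 12 are below 0. Cox4i1, the main form of subunit 4, had 273, 281 and 249 RPKM in TBI libraries and 292, 262 and 296 RPKM in control libraries, which overlapped (log2 fold change -0.16, adjusted p = 0.227 by edgeR). Cox4i2, the form best known from lung and induced by low oxygen, had 0.831, 1.03 and 0.980 RPKM in TBI libraries and 0.389, 0.724 and 0.590 RPKM in control libraries. All TBI libraries of Cox4i2 were higher, and its log2 fold change of 0.65 ± 0.29 (SE) had an unadjusted p of 0.0422 and an adjusted p of 0.153 by edgeR. It rests on 43, 54 and 49 counts in TBI libraries and 19, 39 and 36 counts in control libraries; limma on log2(RPKM + 1) called it higher.

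Cox4i2 made up 0.353 ± 0.045% of the summed RPKM of the subunit 4 pair in TBI libraries and 0.203 ± 0.071% in control libraries (SD, n = 3 each). In all, 14 such shares were compared over 8 paralog sets by 2-sided exact permutation tests, for which 0.1 is the smallest p that 3 against 3 libraries can give (0.2 adjusted over the 14). Of the 14 shares, 7 did not overlap between the groups and had that p of 0.1 by the exact test. Shares of the same set move against one another, so the 7 are not independent. For single rows, deposited RPKM did not overlap in 23.2% (TBI higher) and 11.2% (TBI lower) of all tested rows. Shares of other gene sets were not computed, so no general shift of isoforms is read from this count. Pericyte and smooth muscle markers, which mark cells known to carry Cox4i2, summed to 69.1 to 71.3 RPKM in TBI libraries and 64.6 to 73.1 RPKM in control libraries, with 1 of 12 higher, 1 lower and none at 0; their part in the Cox4i2 values was not tested.

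Cox6a2, the heart and muscle form of subunit 6a, had 2.92, 3.01 and 3.24 RPKM in TBI libraries and 2.82, 2.31 and 2.62 RPKM in control libraries. Its abundant partner Cox6a1 had 166, 169 and 173 RPKM in TBI libraries and 187, 160 and 175 RPKM in control libraries. The share of Cox6a2 in the pair was 1.77 ± 0.060% in TBI libraries and 1.46 ± 0.034% in control libraries, without overlap, although the log2 fold changes of 0.16 for Cox6a2 and -0.12 for Cox6a1 did not pass. Skeletal muscle markers summed to 23.6 to 28.5 RPKM in TBI libraries and 21.6 to 37.8 RPKM in control libraries, with 0 of 7 tested called. Parvalbumin interneuron markers summed to 146 to 164 RPKM in TBI libraries and 160 to 210 RPKM in control libraries, with 0 of 8 higher and 1 lower. The part of either cell type in the Cox6a2 values was not tested. The Cox6a2 row overlaps Itgad on the opposite strand, and reads of the 2 genes cannot be told apart without the strand setting of the counting.

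The other complex IV sets showed less. Cox6b2, a testis form, had 0.419, 0.780 and 0.409 RPKM in TBI libraries and 0.246, 0.380 and 0.493 RPKM in control libraries, beside 126, 141 and 135 RPKM in TBI libraries and 135, 132 and 142 RPKM in control libraries for the common Cox6b1. Both overlapped. Cox7a2, the common form of subunit 7a, had 42.8, 48.2 and 39.6 RPKM in TBI libraries and 52.0, 46.3 and 53.0 RPKM in control libraries, a log2 fold change of -0.29 just outside the threshold (adjusted p = 0.0523 by edgeR). Cox7a2l, a paralog of Cox7a2, had 63.1, 70.9 and 61.4 RPKM in TBI libraries and 69.2, 66.1 and 71.4 RPKM in control libraries. The Cox7a2 share of its set was 39.5 ± 0.51% in TBI libraries and 41.7 ± 0.93% in control libraries, and that of Cox7a2l was 59.2 ± 1.0% in TBI libraries and 57.1 ± 0.89% in control libraries, both without overlap.

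Several isoforms known from other tissues were barely detected. Cox7a1, the heart and muscle form of subunit 7a, had 2.07, 1.44 and 0.675 RPKM in TBI libraries and 1.63, 1.40 and 1.14 RPKM in control libraries, which overlapped. Cox7b2, Cox8b and Cox8c had too few counts to be tested: Cox7b2 had 6, 8 and 10 counts in TBI libraries and 5, 21 and 8 in control libraries, and Cox8b had 12, 7 and 12 counts in TBI libraries and 6, 4 and 11 in control libraries. Cox8c, a testis form, had 0 counts in all TBI libraries and 0, 2 and 2 in control libraries. Their common partners were abundant: Cox8a had 256, 257 and 248 RPKM in TBI libraries and 305, 248 and 284 RPKM in control libraries, and Cox7b had 56.6, 62.0 and 55.2 RPKM in TBI libraries and 63.9, 56.2 and 65.8 RPKM in control libraries, each with overlap.

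Ndufa4 carries a complex I name but is now counted with complex IV, and its paralog Ndufa4l2 is known as a target of hypoxia-inducible factor (HIF). Both stand with complex I in the counts by prefix. With Ndufa4 moved to complex IV, the median log2 fold change was -0.121 for complex I and -0.151 for complex IV. Ndufa4l2 had 1.19, 1.58 and 1.12 RPKM in TBI libraries and 1.02, 0.728 and 1.11 RPKM in control libraries. Ndufa4 had 111, 121 and 104 RPKM in TBI libraries and 126, 111 and 127 RPKM in control libraries. The Ndufa4l2 share of the pair was 1.14 ± 0.13% in TBI libraries and 0.772 ± 0.11% in control libraries, without overlap, while neither gene passed the test alone (log2 fold changes 0.36 and -0.20). Its row overlaps Shmt2 on the opposite strand. Of 14 HIF targets outside the rule, 3 were higher, none lower and 11 not called, where 15.4% of named genes were called higher. The median log2 fold change of the list was 0.06. The 3 were Adm, the vasodilator adrenomedullin (log2 fold change 2.08), Hk2, a hexokinase (1.76), and Car9, a carbonic anhydrase (1.70).

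**Figure D4:**
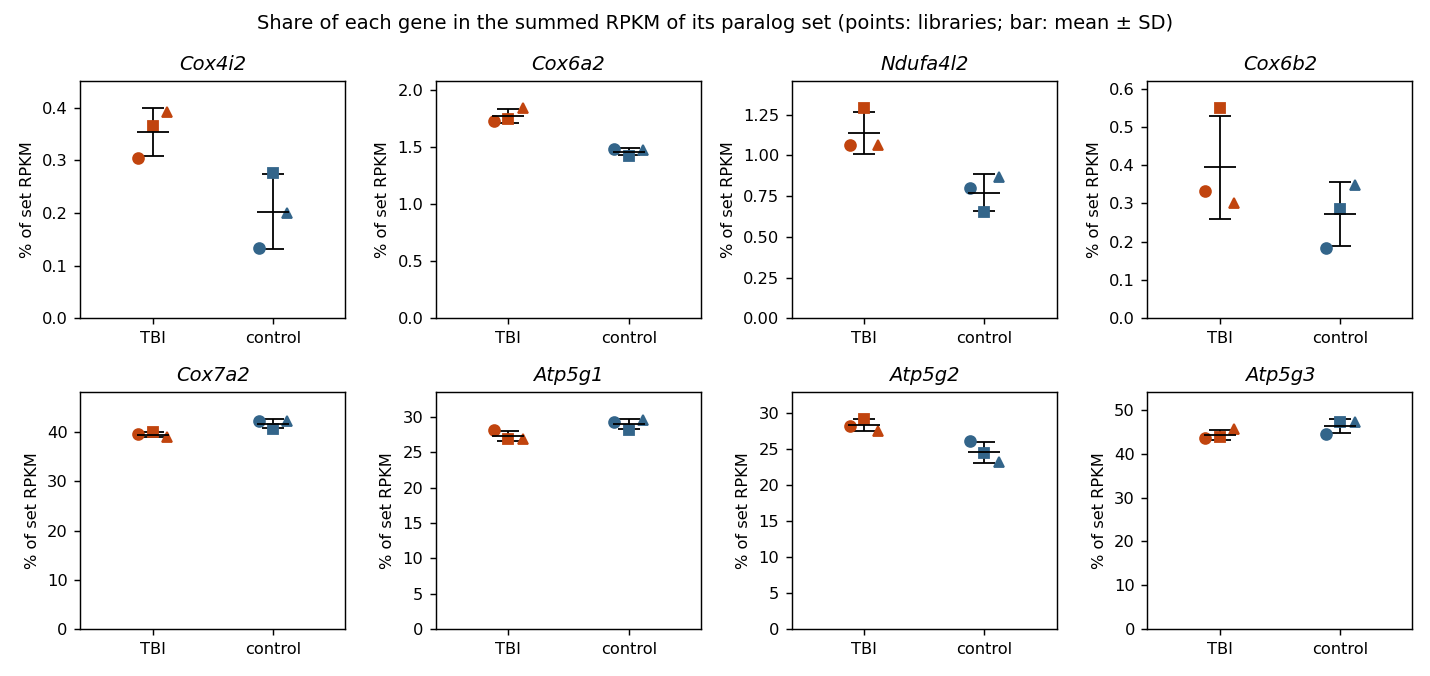
Share of 8 genes in the summed RPKM of their paralog set (vertical axis from 0, %), in each TBI library (red, left) and control library (blue, right), with mean ± SD (n = 3 each). The shares of Cox4i2, Cox6a2, Ndufa4l2 and Atp5g2 are higher in all TBI libraries, those of Cox7a2 and Atp5g1 lower in all of them, and Cox6b2 and Atp5g3 overlap.

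Subunit c, which forms the rotating ring of the ATP synthase, comes from 3 genes whose precursors give the same mature protein, so their levels can be read as parts of a sum. Atp5g2 had 41.6, 47.2 and 41.2 RPKM in TBI libraries and 41.1, 36.5 and 37.9 RPKM in control libraries. Atp5g1 had 41.5, 43.5 and 40.3 RPKM in TBI libraries and 46.1, 42.2 and 48.3 RPKM in control libraries, and Atp5g3 had 64.4, 71.0 and 68.4 RPKM in TBI libraries and 70.3, 71.0 and 77.3 RPKM in control libraries. The log2 fold changes were 0.09 ± 0.09 for Atp5g2, the single positive one, -0.21 ± 0.08 for Atp5g1 and -0.18 ± 0.08 for Atp5g3 (SE), none of which passed (adjusted p = 0.57, 0.114 and 0.137 by edgeR). The Atp5g2 share of the 3 was 28.3 ± 0.85% in TBI libraries and 24.6 ± 1.5% in control libraries, and the Atp5g1 share was 27.3 ± 0.72% in TBI libraries and 29.0 ± 0.71% in control libraries, both without overlap. The longest exact stretch shared by 2 of their coding sequences is 20 bases, between Atp5g1 and Atp5g2. Atp5g1 has 4 and Atp5g2 has 2 pseudogene copies at 90% identity or more, and the part of these copies in the shares was not tested.

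Their promoters are shown because the 3 genes give the same mature protein from separate promoters (RefSeq, GRCm38.p6, reverse strand for all 3). Their coding sequences differ too, and the part of the promoters in the shares was not tested. The windows are chr11:96075582-96075881, chr15:102670998-102671297 and chr2:73911277-73911576, with capitals for the same 5 motifs.
Atp5g1: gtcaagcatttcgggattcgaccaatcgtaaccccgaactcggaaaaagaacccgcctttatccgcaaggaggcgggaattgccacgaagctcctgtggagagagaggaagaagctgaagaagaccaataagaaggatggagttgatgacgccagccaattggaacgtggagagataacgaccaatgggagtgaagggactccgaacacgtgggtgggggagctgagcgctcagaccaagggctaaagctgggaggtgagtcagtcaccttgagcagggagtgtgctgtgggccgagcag
Atp5g2: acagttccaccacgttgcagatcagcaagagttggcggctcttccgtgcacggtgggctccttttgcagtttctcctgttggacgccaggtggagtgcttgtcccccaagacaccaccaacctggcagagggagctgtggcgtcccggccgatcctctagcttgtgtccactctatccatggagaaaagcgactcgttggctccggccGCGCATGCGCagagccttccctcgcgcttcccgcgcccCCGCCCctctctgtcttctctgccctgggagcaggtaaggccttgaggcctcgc
Atp5g3: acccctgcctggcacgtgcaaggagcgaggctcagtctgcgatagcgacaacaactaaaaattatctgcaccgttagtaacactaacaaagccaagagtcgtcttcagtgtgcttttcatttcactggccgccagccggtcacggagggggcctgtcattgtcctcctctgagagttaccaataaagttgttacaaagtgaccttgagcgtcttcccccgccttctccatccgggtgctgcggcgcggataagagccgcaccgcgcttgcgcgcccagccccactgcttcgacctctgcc
The Atp5g2 window holds a palindrome in which the NRF1 core reads on both strands, and a GC box nearer the start. The windows of Atp5g1 and Atp5g3 hold none of the 5 motifs, which says only that these letters are not in these windows.

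Transcript rows gave the same picture as gene rows, since 90 of the 103 transcript rows of the 92 genes held the same counts as the gene row in every library. Of 100 tested rows, edgeR called 0 higher and 9 lower, where 10.1% of all transcript rows were called higher and 9.81% lower; DESeq2 called 0 higher and 7 lower (10.2% and 10.1% of all), and 1 row was higher at an unadjusted p under 0.05 (15.5% of all). The 9 belong to the 5 genes above and to Atp5l, Cox7a2, Ndufa5 and Sdhb, whose gene rows lay just outside the threshold. Of the 8 genes with several transcript rows, 6 had rows whose log2 fold changes differed by at most 0.00565 within the gene (Atp5c1, Atp5g1, Cox7a2l, Ndufs1, Ndufs6 and Ndufs8), while those of the low-level Cox6b2 differed by 0.22. The remaining gene was Ndufv3, a small complex I subunit made in a short and a long form. Its row of smaller count stood at 64.7, 62.6 and 65.4% of its row of larger count in TBI libraries. In control libraries it stood at 69.6, 65.8 and 68.1%. The row of larger count held the same counts as the gene row, so reads are counted in both rows. These percentages are therefore not isoform shares, and they were not tested. Neither row was called.

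Genes that work beside the members were read from lists chosen with the results known. Cycs, cytochrome c itself, averaged 43.9 ± 2.0 RPKM in TBI libraries and 50.9 ± 2.1 RPKM in control libraries, and Cyc1, the cytochrome c1 of complex III that the name rule does not reach, averaged 31.4 ± 0.87 RPKM in TBI libraries and 35.1 ± 1.3 RPKM in control libraries (SD, n = 3 each). Both were called lower, with log2 fold changes of -0.29 and -0.24. Of 28 assembly factors of complexes II to V, 0 were higher and 2 lower, the heme A synthesis enzyme Cox10 and the copper chaperone Cox11 (log2 fold change -0.30 each). None of the 7 complex I assembly factors with other names and none of 3 partners of the ATP synthase were called.

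The citric acid cycle list, which also holds pyruvate dehydrogenase and the NADP-dependent Idh2, had 3 lower and 1 higher of 18, with a median log2 fold change of -0.15. The isocitrate dehydrogenase subunit Idh3a (-0.27) and the pyruvate dehydrogenase subunit Pdhb (-0.23) were among those that fell, and the NADP-dependent Idh2 rose (0.31). Of 12 regulators of mitochondrial biogenesis, 3 fell: the coactivators Ppargc1a (-0.35) and Ppargc1b (-0.44) and the nuclear receptor Esrra (-0.29). The related coactivator Pprc1 rose (0.44), and Nrf1, Gabpa, Yy1 and Tfam were not called. Single calls in these lists were often lost among 15 alternatives, up to 9 times for Cyc1 and Pdhb and 2 times for Cycs, while Adm and Hk2 were called in all 15. Genes encoded by mitochondrial DNA were not analysed here.

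Ribosomal protein genes, another set of short and abundant transcripts, are given for comparison. Cytosolic ribosomal protein rows gave 54 higher and 0 lower of 81, with a median log2 fold change of 0.30, and mitochondrial ribosomal protein rows 3 higher and 1 lower of 76, with a median of -0.01. Among rows under 750 bases with a mean of at least 10 RPKM, 41 OXPHOS subunits had a median of -0.15 and 351 named genes one of -0.002. From 750 to under 1500 bases the medians were -0.15 for 22 subunits and -0.02 for 735 named genes. From 1500 to under 3000 bases they were -0.12 for 11 subunits and -0.05 for 1622 named genes. At 3000 bases or more there were 0 subunits, and 2381 named genes had a median of -0.13. Neuronal marker sums were lower in all TBI libraries, as given above, and their part in the members' values was not tested.

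**Figure D5:**
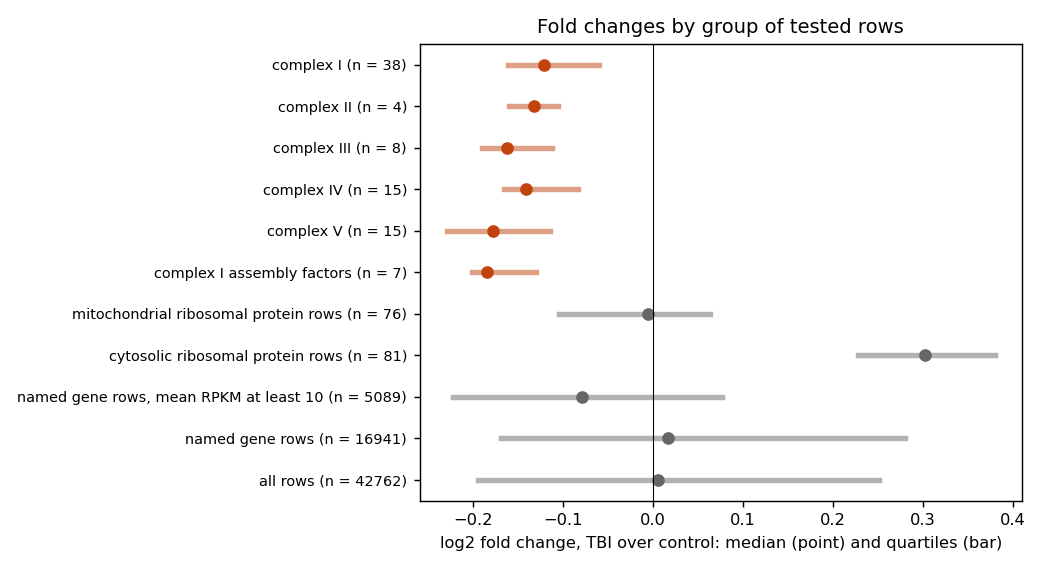
Median (point) and quartiles (bar) of the log2 fold change (TBI over control, horizontal axis) for subunits of each complex and complex I assembly factors (red) and for other groups of tested rows (grey). The medians of the 5 complexes lie between -0.18 and -0.12, that of cytosolic ribosomal protein rows at 0.30.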

How the data were processed

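RNA from 3 TBI and 3 control cortex libraries was sequenced; per the labels' protocols, RNA was fragmented and 1 cDNA strand marked with deoxy-UTP. The submitters' processing notes name TopHat2 and mm10. Not given in the sources used here: counting tool, strand setting and annotation release. The authors deposited counts and RPKM (counts scaled by row length and library total) for gene and transcript rows, per the file headers; 0 columns of values lack a sample. Rows overlap, so totals overstate the reads counted.

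Deposited counts of the whole table were tested with edgeR 4.0.16 (R 4.3.3; filterByExpr with a minimum count of 10 and total of 15, TMM, quasi-likelihood F test without covariates), Benjamini-Hochberg adjusted over all tested rows and called under 0.05. The fit was tested on simulated data. Medians by complex have no test. Paralog shares used exact permutation tests (scipy 1.17.1). Motifs were searched in RefSeq promoters, and pseudogene copies with blastn 2.17.0 against GENCODE M21 transcripts (at least 90% identity over 80% of the coding sequence).

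Alternatives were RLE, upper-quartile and no factors, no filter, DESeq2 1.42.0, limma 3.58.1 on log2(RPKM + 1) and log2(RPKM + 0.1), FANTOM3 rows left out, a replicate block, and each library left out. Named with values in every library were the called members, the most abundant and most changed member of each complex, the paralog sets and complex II; Uqcrb was added after its values were seen. Members and lists were chosen with earlier results of these data known. Intervals cover the spread between these libraries; with 3 per group, small changes can be missed. A called gene of the citric acid cycle list is not reported here by name.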

Additional observations from a re-analysis of the deposited data

How the results depend on the processing

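The 5 complex medians were below 0 under all alternatives run, but nearer 0 with library totals and with limma on either pseudocount: -0.0409 to -0.0398 for complex I, -0.0520 to -0.0507 for II, -0.0812 to -0.0784 for III, -0.0794 to -0.0587 for IV and -0.0965 to -0.0918 for V. Leaving out 1 library in turn gave medians of -0.178 to -0.0763 for complex I and -0.220 to -0.107 for complex V. The count of members called lower (5) was 9 with upper-quartile factors, 2 with library totals, 2 with limma on either pseudocount and 16 without FANTOM3 rows; transcript rows called lower (9) were 2 with library totals and 2 with limma on either pseudocount. Leaving out 1 library gave 0 to 20 genes and 0 to 21 transcript rows called lower. None was called higher except Cox4i2 with limma: 1 gene with log2(RPKM + 1), and 1 transcript row with either pseudocount. With library totals 15 members, and with limma 13, turned to above 0, as these shift the fold changes of all rows upward by a median of 0.0797 and 0.0664 to 0.0777; of genes whose fold changes are printed, these were Sdhc (0.0258, 0.0230 and 0.0236) and Ndufb9 (0.0157, 0.0149 and 0.0150) with library totals, log2(RPKM + 1) and log2(RPKM + 0.1). RLE factors, DESeq2 and no filter moved no gene count by over 1.5 times.

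Replicate numbers are shared between the groups, but same-numbered libraries deviated together by correlations of 0.0504, 0.0514 and 0.0469 only, each the highest for its number, so no pairing was assumed. With the replicate block, 6 genes and 8 transcript rows were called lower and 0 higher, and the medians of complexes I to V were -0.120, -0.132, -0.159, -0.153 and -0.173. With 3 libraries a group, depth and number limit what can be called, and isoforms below about 1 RPKM rest on few counts.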

Other observations

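Levels within a complex were uneven although its subunits are used in fixed numbers. Mean RPKM over the 6 libraries ran between 8.47 for Ndufa11 and 118 for Ndufb9 in complex I (Ndufa4l2, a paralog of Ndufa4, left out), between 46.5 for Uqcrfs1 and 94.8 for Uqcrh in complex III, and between 28.6 for Atp5e and 322 for Atp5b in complex V. RPKM divides counts by row length, which was 2661 bases for Ndufa11 and 651 bases for Ndufb9. The part of row length in these levels was not tested. The sum over the 18 complex IV genes was 1469 to 1579 RPKM in TBI libraries and 1490 to 1668 RPKM in control libraries, and that over the 38 complex I genes was 1661 to 1876 RPKM in TBI libraries and 1716 to 1844 RPKM in control libraries, both with overlap. All members together took 0.468 to 0.521% of the column totals in TBI libraries and 0.483 to 0.529% in control libraries.

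Of 90 members whose coding sequence was matched by gene name, 31 had at least 1 pseudogene copy at 90% identity or more, and Atp5l, subunit g of the ATP synthase, had 13. The rows of 12 members overlap a named gene on the opposite strand, among them Atp5j, the coupling factor subunit, with Gabpa, which encodes the DNA-binding subunit of GABP. What these copies and overlaps add to the members' counts was not tested.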
